A study of Mus musculus with 22 samples.

Results

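Glycolysis and hypoxia genes were examined in stem cells sorted from mouse fetal liver. The set holds 35 genes in 5 roles, listed by symbol: 3 glucose and lactate carriers, 16 glycolytic enzymes, 3 regulators of glycolytic flux, 4 genes of oxygen sensing and 9 other targets of hypoxia-inducible factor (HIF). Of these, 30 had a probe that names that gene alone, among 22180 genes measured in this way. The 30 comprise 3 carriers, 13 enzymes, 3 flux regulators, 4 oxygen-sensing genes and 7 other HIF targets. The remaining 5 have no value here: Gpi1 and Eno1 had no probe listed, and Aldoa, Bnip3l and Ankrd37 had only probes that name several genes.

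All cultures came from wild-type C57Bl/6J embryos at E14.5. Liver cells were kept on OP9-DL1, a stromal line presenting the Notch ligand Dll1, and SLAM LSK cells, a fraction enriched for stem cells, were sorted afterwards. The groups were 1 µM gamma-secretase inhibitor (GSI), which blocks the cleavage that activates Notch, for 10 h (n = 4), its solvent DMSO for 10 h (n = 4), GSI for 4 h (n = 7) and DMSO for 4 h (n = 7). Every group was on the Notch ligand, so none was free of stroma. The design text counts them as biological replicates, each made of a GSI and a DMSO culture, which gives 4 pairs at 10 h and 7 pairs at 4 h. The sort is a surface gate, and the sorted RNA may hold other cells.

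Glycolysis breaks glucose down to pyruvate in the cytosol, and lactate dehydrogenase turns pyruvate into lactate when it is not passed to mitochondria. HIF is a transcription factor made of an oxygen-sensitive alpha subunit, encoded among the members by Hif1a and Epas1, and the stable partner Arnt. Prolyl hydroxylases such as Egln1 and Egln3 mark the alpha subunit for destruction when oxygen is present. When they are idle, HIF raises many carriers and enzymes of glycolysis, and adult haematopoietic stem cells are known for their reliance on glycolysis. Levels of transcripts do not measure flux or oxygen.

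HIF binds a short core sequence, ACGTG or GCGTG. It was searched on both strands (as CACGT or CACGC on the other) in the RefSeq promoters of build GRCm38.p6, each 300 bases long, with 250 before and 50 after the gene's start. CACGTG counts as 2 overlapping matches. Of the 27 measured members with an entry, 25 (92.6%) held the core in a promoter, against 46.7% of 27025 genes. A gene counted if any of its listed promoters held the core, and base content was not matched. The members were listed as glycolysis genes and HIF targets, so a high share was partly set by that choice and is no test of them. Among members with an entry that passed the time test below in GSI or DMSO, the core was in 7 of 8 that were higher at 10 h and in 7 of 8 that were lower. Slc2a3, Epas1 and Ndrg1 had no entry. The promoters below belong to 3 members that were higher at 10 h (Hk1 on chr10:62340372-62340671, Pdk1 on chr2:71872974-71873273 and Bnip3 on chr7:138909457-138909756), to Eno2, which was lower (chr6:124769624-124769923), and to Egln3, which had the smallest p for the mean effect of GSI over both times (chr12:54203825-54204124). Pdk1 is on the plus strand and the other members shown are on the minus strand. Capitals mark the core, which occurs 5 times in the Hk1 promoter shown, 2 times in Pdk1, 5 times in Bnip3, 0 times in Eno2 and 1 time in Egln3. Hk1 and Pdk1 each have another listed promoter with 0 matches, and the promoter with more matches is shown. A match describes letters and is not a measured binding site.
Hk1: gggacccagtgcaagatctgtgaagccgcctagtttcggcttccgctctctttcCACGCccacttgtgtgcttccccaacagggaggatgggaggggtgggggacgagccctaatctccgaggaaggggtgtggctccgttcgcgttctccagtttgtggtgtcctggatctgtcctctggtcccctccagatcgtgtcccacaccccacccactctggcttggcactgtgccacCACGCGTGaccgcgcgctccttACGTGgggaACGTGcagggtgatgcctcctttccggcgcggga
Pdk1: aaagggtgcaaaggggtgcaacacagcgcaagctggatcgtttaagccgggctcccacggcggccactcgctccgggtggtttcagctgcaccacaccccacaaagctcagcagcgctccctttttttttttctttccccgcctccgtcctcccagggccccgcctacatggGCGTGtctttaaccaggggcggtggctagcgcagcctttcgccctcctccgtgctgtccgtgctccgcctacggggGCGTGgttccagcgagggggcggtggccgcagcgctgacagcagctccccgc
Bnip3: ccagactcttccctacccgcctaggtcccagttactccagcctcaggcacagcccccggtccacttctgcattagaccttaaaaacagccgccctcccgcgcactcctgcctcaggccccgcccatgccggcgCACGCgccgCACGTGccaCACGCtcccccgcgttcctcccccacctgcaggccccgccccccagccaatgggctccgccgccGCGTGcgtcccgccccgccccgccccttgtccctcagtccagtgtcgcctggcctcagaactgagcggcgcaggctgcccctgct
Eno2: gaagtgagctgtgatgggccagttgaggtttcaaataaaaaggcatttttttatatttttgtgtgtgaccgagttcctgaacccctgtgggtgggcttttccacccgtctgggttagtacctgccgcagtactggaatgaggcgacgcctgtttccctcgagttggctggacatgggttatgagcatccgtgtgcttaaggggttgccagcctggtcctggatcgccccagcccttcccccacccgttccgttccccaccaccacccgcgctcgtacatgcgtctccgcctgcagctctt
Egln3: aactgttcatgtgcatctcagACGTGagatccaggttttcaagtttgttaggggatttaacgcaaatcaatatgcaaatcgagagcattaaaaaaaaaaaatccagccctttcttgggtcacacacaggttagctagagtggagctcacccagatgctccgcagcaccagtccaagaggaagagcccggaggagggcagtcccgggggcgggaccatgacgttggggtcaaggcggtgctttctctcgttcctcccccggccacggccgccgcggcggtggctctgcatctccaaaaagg

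Array medians were 4.45 to 4.52 at 10 h and 5.03 to 5.12 at 4 h on the deposited log2 scale, and the median gene differed by -0.42 between the times in GSI and by -0.41 in DMSO. Levels at both times were therefore compared after joint quantile normalization, which brought these medians to 0.03 and 0.04. Codes in the sample descriptions divide the 10 h pairs into 2 sets and the 4 h pairs into 3. The labels do not say what the codes mark. The sets are called runs here, numbered 1 to 3 at 4 h and 4 and 5 at 10 h, and each covers a single time. Differences of time and of run cannot be told apart for that reason. Of 10 listed stem cell markers 8 were measured. Kit, a gate marker, was at 8.97 to 9.96 at 10 h and 9.62 to 10.16 at 4 h, while the probe of Slamf1, the other gate marker measured, was at 4.87 to 5.65 at 10 h and 3.29 to 4.44 at 4 h. The mean of 10 endothelial markers, all measured, ranged over 6.17 to 7.44 in GSI at 10 h, 6.29 to 7.72 in DMSO at 10 h, 7.53 to 10.07 in GSI at 4 h and 7.36 to 10.11 in DMSO at 4 h. Pair 6 at 4 h had the highest endothelial mean and the lowest Hlf, a stem cell transcription factor, at 5.78 in GSI and 5.13 in DMSO against group medians of 8.37 and 7.79. Fewer cells of a type and less RNA per cell cannot be told apart in such bulk samples.

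The first comparison asks how the members differed between longer and shorter culture. In GSI cultures 15 of 30 members passed (6 higher and 9 lower at 10 h), against 36.1% of all genes, and in DMSO cultures 15 of 30 passed (8 higher and 7 lower), against 33.9%. These are 50% of the members in each treatment. The median change over the members was -0.00 in GSI and 0.05 in DMSO, against 0.03 and 0.04 over all genes. Directions were mixed, and by direction 19.1% of all genes were higher and 17% lower in GSI, and 18.7% and 15.2% in DMSO. At an unadjusted p under 0.05 there were 18 members in each treatment, against 46.1% of all genes in GSI and 45.1% in DMSO. On the deposited values, before joint normalization, the split was 3 higher and 16 lower in GSI and 1 higher and 17 lower in DMSO. Without the array of 4 h pair 6, 16 members passed in GSI and 16 in DMSO. The shares of all genes on the deposited values and without this array are not given here. A change passed at a Benjamini-Hochberg adjusted p under 0.05 over all genes in limma, and it is given as log2 ± SE.

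**Figure D1:**
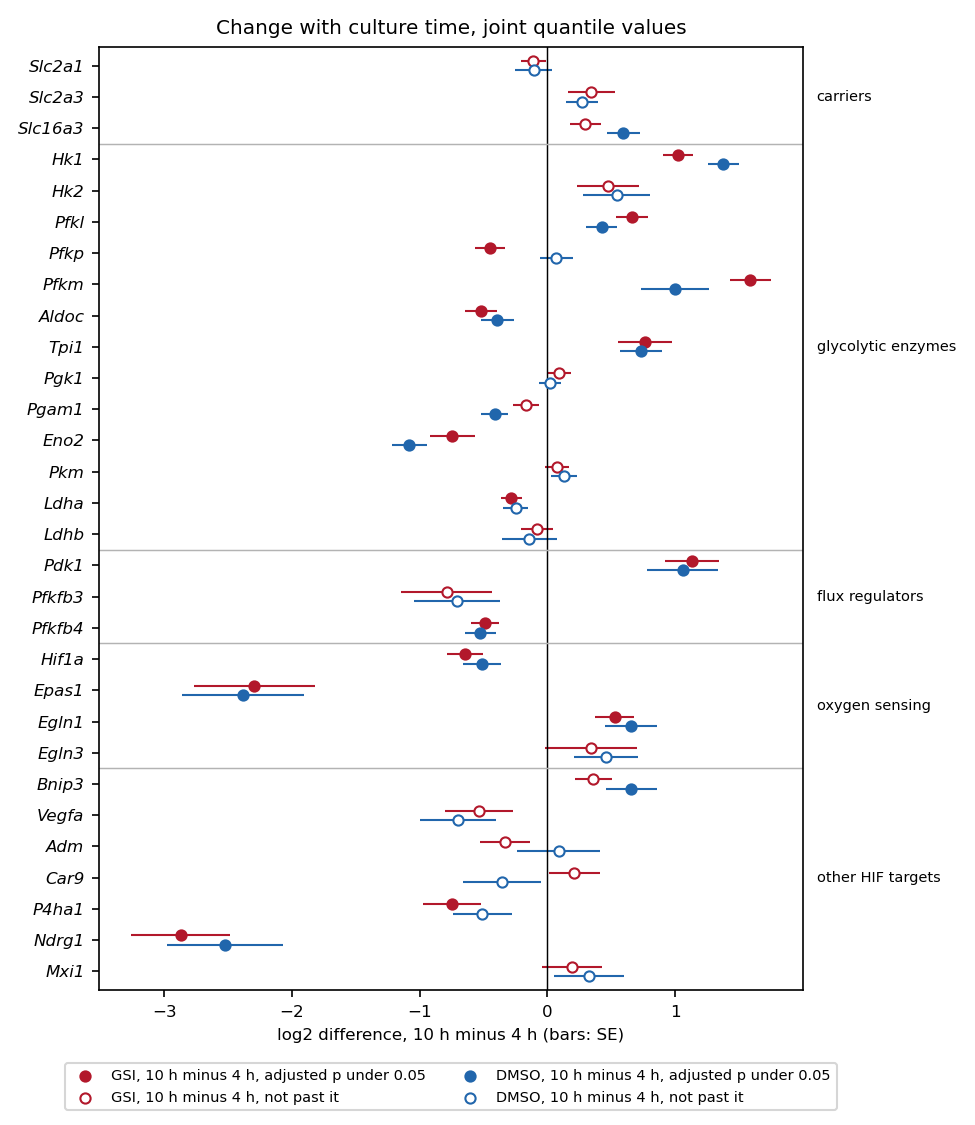
Change of each measured member between 10 h and 4 h, as the log2 difference of joint quantile values with its SE, in GSI (red) and DMSO (blue) cultures. Filled points passed the adjusted p of 0.05; Hk1, Pfkm and Pdk1 lie to the right and Epas1 and Ndrg1 far to the left in both treatments.

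The same 12 members passed in both treatments, 6 of them higher at 10 h (Hk1, Pfkm, Pdk1, Tpi1, Egln1 and Pfkl, although on the deposited values Egln1 was -0.02 in GSI and Pfkl -0.22 in DMSO) and 6 lower (Ndrg1, Epas1, Eno2, Hif1a, Pfkfb4 and Aldoc). Pfkp, Ldha and P4ha1 passed in GSI only, and Slc16a3, Bnip3 and Pgam1 in DMSO only. Hk1 in both treatments, Pfkm and Ndrg1 in GSI and Eno2 in DMSO passed under every alternative that was run, and each other call was lost under at least 1 of them. No member passed the test of whether the time change differed between treatments. That test used the deposited values with the pair as a block, not the joint quantile values. The members that passed in 1 treatment are therefore not shown to differ between treatments. The groups did not overlap for 13 members in GSI, against 23.6% of all genes, and for 9 members in DMSO, against 20.9%. In GSI 5 of them lay above and 8 below (12.7% and 10.9% of all genes), and in DMSO 4 lay above and 5 below (11.8% and 9.12%).

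Among the carriers, Slc16a3 encodes the lactate exporter MCT4. In GSI it was at 5.65, 6.00, 6.08 and 6.13 at 10 h, against a lowest, median and highest value of 5.51, 5.61 and 5.85 at 4 h. DMSO cultures had 5.96, 6.24, 6.36 and 6.6 at 10 h, against 5.55, 5.71 and 5.86 at 4 h. Every DMSO array at 10 h lay above every one at 4 h, and 1 GSI array at 10 h lay within the 4 h range. Slc16a3 was 0.30 ± 0.12 higher at 10 h in GSI (limma adjusted p = 0.069) and rose by 0.60 ± 0.13 in DMSO (limma adjusted p = 0.00482), although it was -0.10 in DMSO on the deposited values. The main glucose importer Slc2a1 was at 9.10, 9.17, 9.41 and 9.56 in GSI at 10 h, against 9.31, 9.41 and 9.5 at 4 h, and at 8.97, 9.07, 9.39 and 9.76 in DMSO at 10 h, against 9.18, 9.41 and 9.53 at 4 h. The 10 h arrays lay on both sides of the 4 h arrays. Neither Slc2a1 (-0.11 in GSI and -0.11 in DMSO) nor the high-affinity importer Slc2a3 (0.35 and 0.27) passed.

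Of the 13 measured enzymes, 4 were higher and 4 lower at 10 h in GSI, and 4 higher and 3 lower in DMSO. Hexokinase, which traps glucose as glucose 6-phosphate, was the clearest case. Hk1 (Entrez 15275, chromosome 10) was at 7.53, 7.57, 7.71 and 7.73 in GSI at 10 h, against 6.39, 6.61 and 6.89 (lowest, median and highest) at 4 h. The DMSO values were 7.68, 7.92, 8.00 and 8.16 at 10 h, against 6.43, 6.59 and 6.62 at 4 h. All arrays at 10 h lay above all arrays at 4 h in both treatments. Hk1 rose 2.03-fold in GSI (1.02 ± 0.117, limma adjusted p = 9.8e-05) and 2.60-fold in DMSO (1.38 ± 0.119, limma adjusted p = 2.3e-05), and it passed under each of 23 alternatives per treatment. On the deposited values its change was 0.47 in GSI and 0.79 in DMSO. The isoenzyme Hk2 was 0.47 and 0.54 higher in GSI and DMSO and did not pass.

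Phosphofructokinase commits sugar to glycolysis and has 3 genes, whose values differed. Pfkm, the muscle form, was at 6.08, 6.17, 6.33 and 6.39 in GSI at 10 h, against 4.15, 4.59 and 5.0 at 4 h. With DMSO it was at 5.25, 5.54, 5.94 and 6.16 at 10 h, against 3.79, 4.69 and 5.46 at 4 h. The groups were apart in GSI and overlapped in DMSO. Pfkm rose 3.01-fold in GSI (1.59 ± 0.159, limma adjusted p = 4.7e-05), and passed under each of 22 alternatives. In DMSO it rose 2.0-fold (1.00 ± 0.265, limma adjusted p = 0.0127), a difference of 0.36 (limma adjusted p = 0.281) on the deposited values. Pfkl, the liver form, was at 7.11, 7.17, 7.31 and 7.59 in GSI at 10 h, against 6.44, 6.70 and 6.80 at 4 h, and at 6.96, 7.01, 7.11 and 7.19 in DMSO at 10 h, against 6.41, 6.69 and 6.83 at 4 h. Its 10 h arrays all lay above its 4 h arrays. Pfkl rose by 0.67 ± 0.125 in GSI (limma adjusted p = 0.00178) and 0.43 ± 0.122 in DMSO (limma adjusted p = 0.0185), with a deposited difference of 0.10 in GSI and a reversed one of -0.22 in DMSO. Pfkp, the platelet form, was at 6.69, 6.81, 6.84 and 6.90 in GSI at 10 h, below all 4 h arrays (6.96, 7.32 and 7.46), and at 6.87, 7.11, 7.25 and 7.40 in DMSO at 10 h, around the 4 h values of 6.89, 7.11 and 7.21. Pfkp fell by 0.45 ± 0.117 on the log2 scale in GSI (limma adjusted p = 0.0109) and was 0.07 ± 0.129 in DMSO. Its GSI call was lost with only the 4 h arrays of run 2 (limma adjusted p = 0.0842), without 10 h run 5 (0.0821), without 10 h run 4 (0.0641) and with the endothelial covariate described later (-0.17, limma adjusted p = 0.589).

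In the steps that follow, Tpi1, which interconverts the triose phosphates, rose by 0.76 ± 0.212 in GSI (limma adjusted p = 0.0146) and 0.73 ± 0.168 in DMSO (limma adjusted p = 0.00611), while on the deposited values it was 0.40 and 0.31 (limma adjusted p = 0.0971 and 0.119). It was at 9.45, 9.65, 9.80 and 9.81 in GSI at 10 h, against 8.02, 8.97 and 9.35 at 4 h, and at 9.54, 9.65, 9.68 and 9.78 in DMSO at 10 h, against 8.19, 8.99 and 9.24 at 4 h. The lowest 4 h value of each treatment came from pair 6. Eno2, the neuronal enolase, went the other way. It was at 4.60, 4.64, 4.81 and 4.85 in GSI at 10 h, against 4.99, 5.41 and 6.11 at 4 h, and at 4.33, 4.37, 4.51 and 4.65 in DMSO at 10 h, against 5.31, 5.48 and 5.99 at 4 h. All arrays at 10 h lay below all arrays at 4 h. Eno2 fell by 0.74 ± 0.177 on the log2 scale in GSI (limma adjusted p = 0.00654) and fell by 1.08 ± 0.138 in DMSO (limma adjusted p = 0.000239). In GSI it no longer passed with only the 4 h arrays of run 2 (-0.37, limma adjusted p = 0.116) or without 10 h run 5 (-0.74, limma adjusted p = 0.0599), while in DMSO it passed under each of 23 alternatives.

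Aldoc, the brain aldolase, was at 4.52, 4.64, 4.67 and 4.74 in GSI at 10 h, against 4.85, 5.08 and 5.52 at 4 h, and at 4.61, 4.78, 4.81 and 4.84 in DMSO at 10 h, against 4.78, 5.14 and 5.52 at 4 h. The groups were apart in GSI and overlapped in DMSO. Aldoc fell by 0.52 in GSI and fell by 0.39 in DMSO on the log2 scale (limma adjusted p = 0.0069 and 0.0334), and in DMSO it no longer passed without any of 5 single arrays (limma adjusted p of 0.0553 to 0.0882; 10 h replicates 1, 3 and 4, 4 h replicates 4 and 7). Pgam1, the mutase, was at 8.39, 8.55, 8.66 and 8.84 in GSI at 10 h, within and below the 4 h values of 8.63, 8.77 and 8.91. In DMSO it was at 8.29, 8.45, 8.48 and 8.62 at 10 h, below all 4 h arrays (8.67, 8.86 and 8.99). Pgam1 was -0.16 in GSI and fell by 0.41 in DMSO (limma adjusted p = 0.0104). Ldha, a lactate dehydrogenase subunit, was at 4.13, 4.26, 4.28 and 4.48 in GSI at 10 h, just below the 4 h values of 4.49, 4.55 and 4.72, and at 4.03, 4.22, 4.43 and 4.44 in DMSO at 10 h, overlapping 4.35, 4.56 and 4.62 at 4 h. Ldha fell by 0.28 in GSI (limma adjusted p = 0.0192; 0.0675 without 10 h replicate 3) and was -0.25 in DMSO. On the deposited scale, Ldha at 3.79 to 4.13, Pfkfb4 at 3.65 to 4.03, Eno2 at 3.98 to 4.46 and Aldoc at 4.17 to 4.45 lay near or below the array medians at 10 h. Epas1, at 4.17 to 5.53 at 10 h, had its lowest arrays below them. At 4 h, Ldha at 4.52 to 4.94 lay below the array medians of 5.03 to 5.12. Pfkm at 4 h averaged 4.86 in GSI and 4.94 in DMSO, also below them, and Pfkfb4 at 4 h averaged 4.90 and 4.97. The changes of these genes begin or end at low signal, and those of Ldha and Pfkfb4 do both. Pkm, the pyruvate kinase gene, was at 10.29, 10.36, 10.36 and 10.55 in GSI at 10 h, against 10.06, 10.29 and 10.56 at 4 h, and at 10.16, 10.37, 10.40 and 10.53 in DMSO at 10 h, against 9.97, 10.23 and 10.45 at 4 h. These groups overlapped. The kinase gene Pgk1 (0.09 in GSI and 0.02 in DMSO), Pkm (0.08 and 0.13) and Ldhb (-0.08 and -0.14) did not pass, and their 95% intervals stayed within -0.61 and 0.35.

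**Figure D2:**
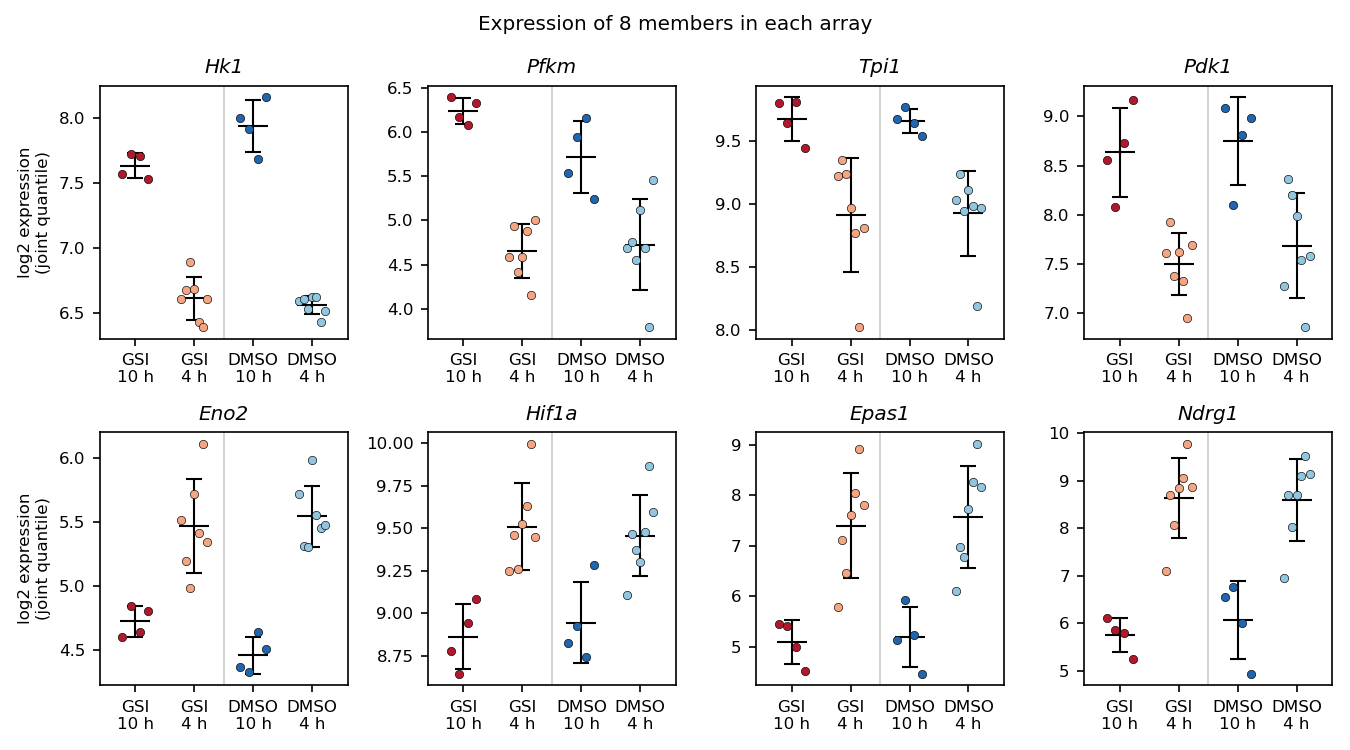
Joint quantile log2 expression of 8 members in each array, with GSI at 10 h and 4 h left of DMSO at 10 h and 4 h; lines give the mean and bars the SD. Pfkm, Pdk1 and Hif1a in GSI, and Hk1, Tpi1, Eno2, Epas1 and Ndrg1 in both treatments show 10 h arrays apart from 4 h arrays, and Epas1 and Ndrg1 show a wide spread at 4 h.

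Among regulators of flux, Pdk1 encodes a kinase that shuts pyruvate dehydrogenase and so keeps pyruvate from mitochondria. It was at 8.08, 8.55, 8.73 and 9.17 in GSI at 10 h, against 6.95, 7.61 and 7.93 at 4 h, with no overlap. In DMSO it was at 8.10, 8.81, 8.98 and 9.09 at 10 h, against 6.86, 7.58 and 8.37 at 4 h, and 1 array at 10 h lay within the 4 h range. Pdk1 rose 2.19-fold in GSI (1.13 ± 0.21, limma adjusted p = 0.00167) and 2.09-fold in DMSO (1.06 ± 0.28, limma adjusted p = 0.0124; 0.55 with an adjusted p of 0.0979 on the deposited values). Its other probe differed by 0.61 and 0.54. Pfkfb4, which makes and breaks the signal that activates phosphofructokinase, was at 3.91, 4.27, 4.31 and 4.31 in GSI at 10 h, against 4.59, 4.61 and 5.02 at 4 h, and at 4.07, 4.18, 4.24 and 4.40 in DMSO at 10 h, against 4.53, 4.69 and 5.11 at 4 h. All 10 h arrays lay below all 4 h arrays. Pfkfb4 fell by 0.49 on the log2 scale in GSI and fell by 0.52 in DMSO (limma adjusted p = 0.00507 and 0.00722). Its relative Pfkfb3 was -0.79 in GSI and -0.71 in DMSO and did not pass.

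Of the members, Hif1a and Epas1 encode alpha subunits of HIF, and both were lower at 10 h, Hif1a by 1 of its probes. Epas1 (Entrez 13819, chromosome 17) encodes HIF-2 alpha, which is abundant in endothelium. It was at 4.52, 4.99, 5.42 and 5.46 in GSI at 10 h, against 5.79, 7.61 and 8.92 at 4 h. DMSO cultures had 4.47, 5.13, 5.23 and 5.93 at 10 h, against 6.10, 7.72 and 9.02 at 4 h. Within each treatment, no array at 10 h reached the lowest 4 h array. Epas1 fell by 2.30 ± 0.475 on the log2 scale in GSI (4.91-fold, limma adjusted p = 0.00304) and fell by 2.39 ± 0.477 in DMSO (5.23-fold, limma adjusted p = 0.00301).

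Hif1a (Entrez 15251, chromosome 12) was at 8.65, 8.78, 8.94 and 9.09 in GSI at 10 h, against 9.25, 9.46 and 9.99 at 4 h. In DMSO it was at 8.74, 8.83, 8.93 and 9.29 at 10 h, against 9.11, 9.46 and 9.87 at 4 h, with 1 array in the 4 h range. Hif1a fell by 0.65 ± 0.14 on the log2 scale in GSI (limma adjusted p = 0.00397) and fell by 0.51 ± 0.146 in DMSO (limma adjusted p = 0.0183; 0.0539 and 0.0596 without 10 h replicates 1 and 3). Its other probe differed the opposite way, by 0.18 in GSI and 0.32 in DMSO, so the direction for Hif1a depends on the probe. Of the prolyl hydroxylases, Egln1 was at 7.17, 7.44, 7.86 and 7.88 in GSI at 10 h, against 6.78, 7.07 and 7.26 at 4 h, and at 7.03, 7.86, 8.00 and 8.29 in DMSO at 10 h, against 6.78, 7.18 and 7.33 at 4 h. In each treatment 1 array at 10 h lay within the 4 h range. Egln1 rose by 0.53 in GSI (limma adjusted p = 0.0173) and by 0.66 in DMSO (limma adjusted p = 0.0263), but was -0.02 in GSI and 0.07 in DMSO on the deposited values. It no longer passed in GSI without 10 h replicate 1 or 2 (limma adjusted p = 0.0635 and 0.0608), nor in DMSO without 10 h replicate 2, 3 or 4 (limma adjusted p = 0.0823, 0.0765 and 0.0613). Egln3 was 0.34 and 0.46 higher and did not pass.

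Of the 7 other HIF targets measured, 2 were lower at 10 h in GSI, and 1 was higher and 1 lower in DMSO. Ndrg1 (Entrez 17988, chromosome 15), a stress-induced gene known to respond to hypoxia, was at 5.25, 5.79, 5.86 and 6.11 in GSI at 10 h, against 7.10, 8.85 and 9.77 at 4 h. With DMSO it was at 4.94, 6.00, 6.55 and 6.77 at 10 h, against 6.96, 8.70 and 9.51 at 4 h. The groups did not overlap. Ndrg1 fell by 2.87 ± 0.387 on the log2 scale in GSI (7.33-fold, limma adjusted p = 0.000257) and fell by 2.52 ± 0.454 in DMSO (5.75-fold, limma adjusted p = 0.00164). Its other probe differed by -1.76 and -1.39.

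Bnip3, which drives removal of mitochondria, was at 6.03, 6.53, 6.55 and 6.6 in GSI at 10 h, against 5.72, 6.09 and 6.31 at 4 h. In DMSO it was at 6.23, 6.28, 6.74 and 7.39 at 10 h, against 5.79, 5.96 and 6.25 at 4 h. The groups overlapped in both treatments. Bnip3 was 0.36 ± 0.146 higher in GSI (limma adjusted p = 0.0703) and rose by 0.66 ± 0.20 in DMSO (limma adjusted p = 0.0238), but was -0.02 in DMSO on the deposited values. Without 10 h replicate 1 it was 0.41 (limma adjusted p = 0.0632), and without 10 h replicate 2 it was 0.63 (limma adjusted p = 0.0514). P4ha1, a collagen prolyl hydroxylase, was at 6.17, 6.30, 6.46 and 6.53 in GSI at 10 h, against 6.44, 7.02 and 7.80 at 4 h, and at 6.42, 6.53, 6.68 and 6.83 in DMSO at 10 h, against 6.5, 7.28 and 7.80 at 4 h, with overlap in both. P4ha1 fell by 0.75 ± 0.226 on the log2 scale in GSI (limma adjusted p = 0.0217; 0.0619 and 0.0548 without 10 h replicates 2 and 3) and was -0.51 ± 0.23 in DMSO. Mxi1, a partner of Max, was at 9.43, 9.45, 9.66 and 10.10 in GSI at 10 h, against 8.79, 9.66 and 10.11 at 4 h, and at 9.16, 9.80, 10.37 and 10.65 in DMSO at 10 h, against 9.13, 9.85 and 10.11 at 4 h. Its groups overlapped. The angiogenic factor gene Vegfa (-0.53 in GSI and -0.70 in DMSO), the peptide hormone gene Adm (-0.33 and 0.09), the carbonic anhydrase gene Car9 (0.21 and -0.36) and Mxi1 (0.19 and 0.33) did not pass. Other probes went the opposite way for Car9 in DMSO (0.12), Mxi1 in GSI (-0.14) and Pgam1 in GSI (0.02).

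Some markers of other cells moved with time. All 10 endothelial markers passed as lower at 10 h in GSI and 9 of 10 in DMSO, with median changes of -2.16 and -2.09. Hepatocyte markers were lower for 4 of 9 in GSI and 7 of 9 in DMSO, OP9 stromal markers for 11 of 16 and 4 of 16, and macrophage markers for 5 of 10 and 3 of 10. Erythroid markers were higher for 3 of 6 and 2 of 6. Of 10 neutrophil and monocyte markers, 0 passed in either treatment. Of all genes, 17% were lower and 19.1% higher at 10 h in GSI, and 15.2% and 18.7% in DMSO. Of the 8 stem cell markers 1 was higher and 1 lower in GSI, and 1 higher and 2 lower in DMSO. No array value is 0, so the absence of a marker could not be read. The part of these other cells in the members' changes was not tested. Values that bear on endothelium follow.

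Over the 7 DMSO cultures at 4 h, where time does not vary, several members had high correlations with the endothelial mean. Epas1 had r = 0.967 (permutation p = 0.00079, adjusted p = 0.0667 over 210 relations; rho = 0.964, permutation p = 0.0028, adjusted p = 0.117). Without cultures 1 and 6, the farthest from the median, r was 0.922. P4ha1 had r = 0.954 (0.941 without them), Adm 0.956 (0.835), Pfkfb3 0.922 (0.90), Ndrg1 0.917 (0.635) and Vegfa -0.929 (-0.448), so the relation of Vegfa and part of that of Ndrg1 rest on cultures 1 and 6. The permutation p of these 5 was 0.0004 to 0.0087 (adjusted p of 0.0667 to 0.167), and rho was 0.929 to 0.964, and -0.679 for Vegfa (permutation p = 0.11). None of the 210 relations passed after adjustment. Members also had high correlations with the mean of the stem cell markers over the same cultures, so they are not shown to be particular to endothelium. Pgk1 had r = 0.968 with it and Tpi1 0.931 (permutation p = 0.0063 and 0.039, adjusted p = 0.148 and 0.34), which were 0.742 and -0.501 without cultures 2 and 6. Pfkfb3, P4ha1, Epas1 and Adm had r of -0.821 to -0.775 (permutation p of 0.0016 to 0.026, adjusted p of 0.0667 to 0.306). The cultures share 1 platform and their endothelial means also follow run, lowest in run 1 and highest in run 3. A run holds at most 4 of these cultures, too few for a value within it.

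**Figure D3:**
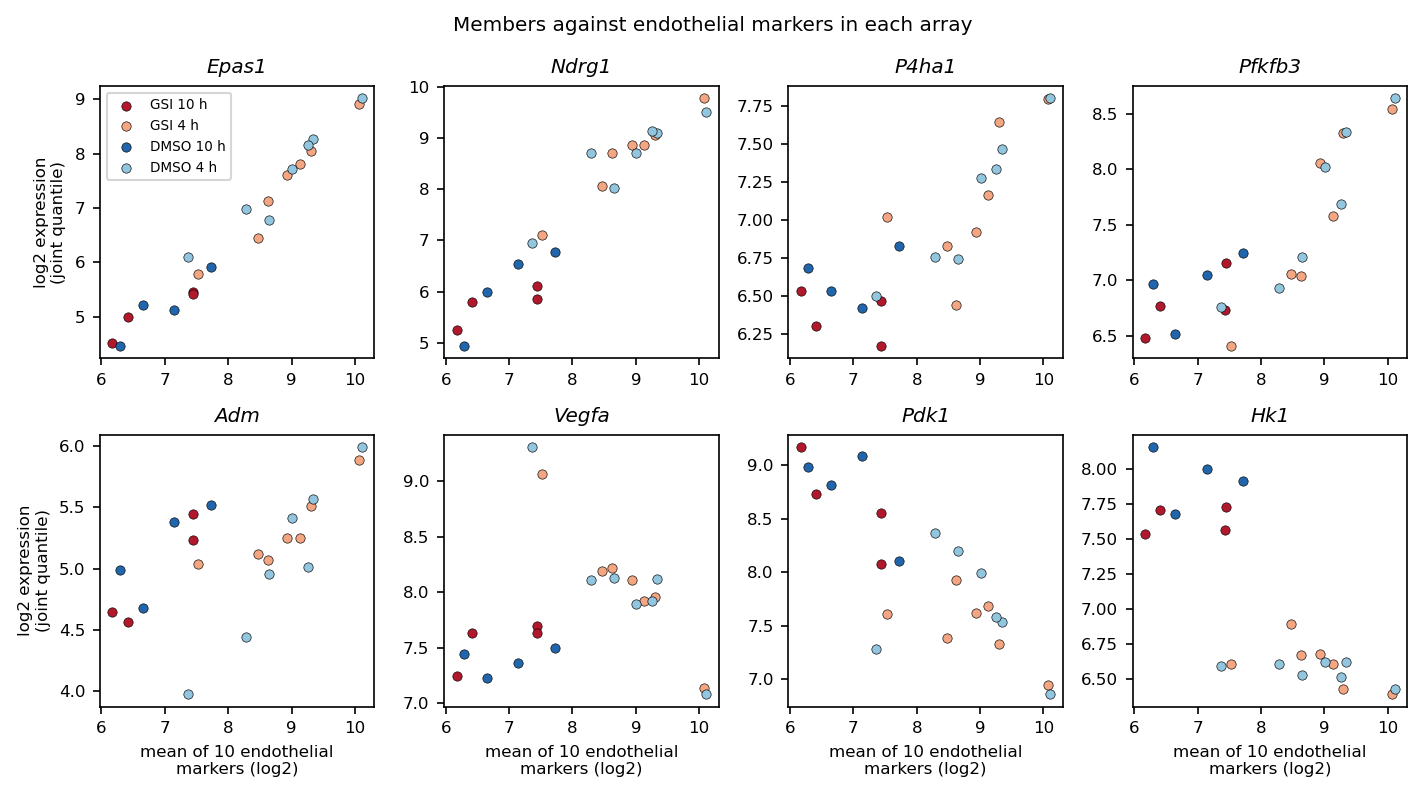
Joint quantile log2 expression of 8 members against the mean of 10 endothelial markers in each of the 22 arrays, coloured by group. Epas1 lies along 1 rising band across all groups. Ndrg1 rises with the mean too, but all its 10 h arrays lie below all its 4 h arrays. Hk1 forms separate clouds at 10 h and 4 h.

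The time change was fitted again with the endothelial mean as a covariate, an alternative chosen after the values were seen. Then 4 of 30 members passed in GSI (6.27% of all genes) and 4 of 30 in DMSO (7.30%). Hk1 remained 0.86 higher in GSI (limma adjusted p = 0.0251) and 1.29 higher in DMSO (limma adjusted p = 0.00349), and Pfkm 1.49 higher in GSI (limma adjusted p = 0.0139). Pfkm in DMSO was 0.86 and no longer passed (limma adjusted p = 0.237). Eno2 was -0.39 in GSI, where it no longer passed, and -1.20 in DMSO, where it did (limma adjusted p = 0.434 and 0.0111). Ndrg1 passed at -1.11 in GSI and no longer passed at -0.69 in DMSO (limma adjusted p = 0.0414 and 0.218). Epas1 was -0.06 in GSI and -0.35 in DMSO (limma adjusted p = 0.931 and 0.441). The change of Pdk1 was 0.47 in GSI and 0.53 in DMSO, and that of Tpi1 was 0.11 and 0.40, none of which passed.

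Members that had not passed without the covariate also passed in this fit. Vegfa was -1.45 in GSI (limma adjusted p = 0.0289) and -1.73 in DMSO (limma adjusted p = 0.00966), and Adm was 0.49 in GSI and 1.42 in DMSO (limma adjusted p = 0.0071 in DMSO). Pfkfb3 changed sign, to 0.72 in GSI and 0.56 in DMSO, and did not pass. The marker mean was lower at 10 h in both treatments, so the covariate and time overlap.

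**Figure D4:**
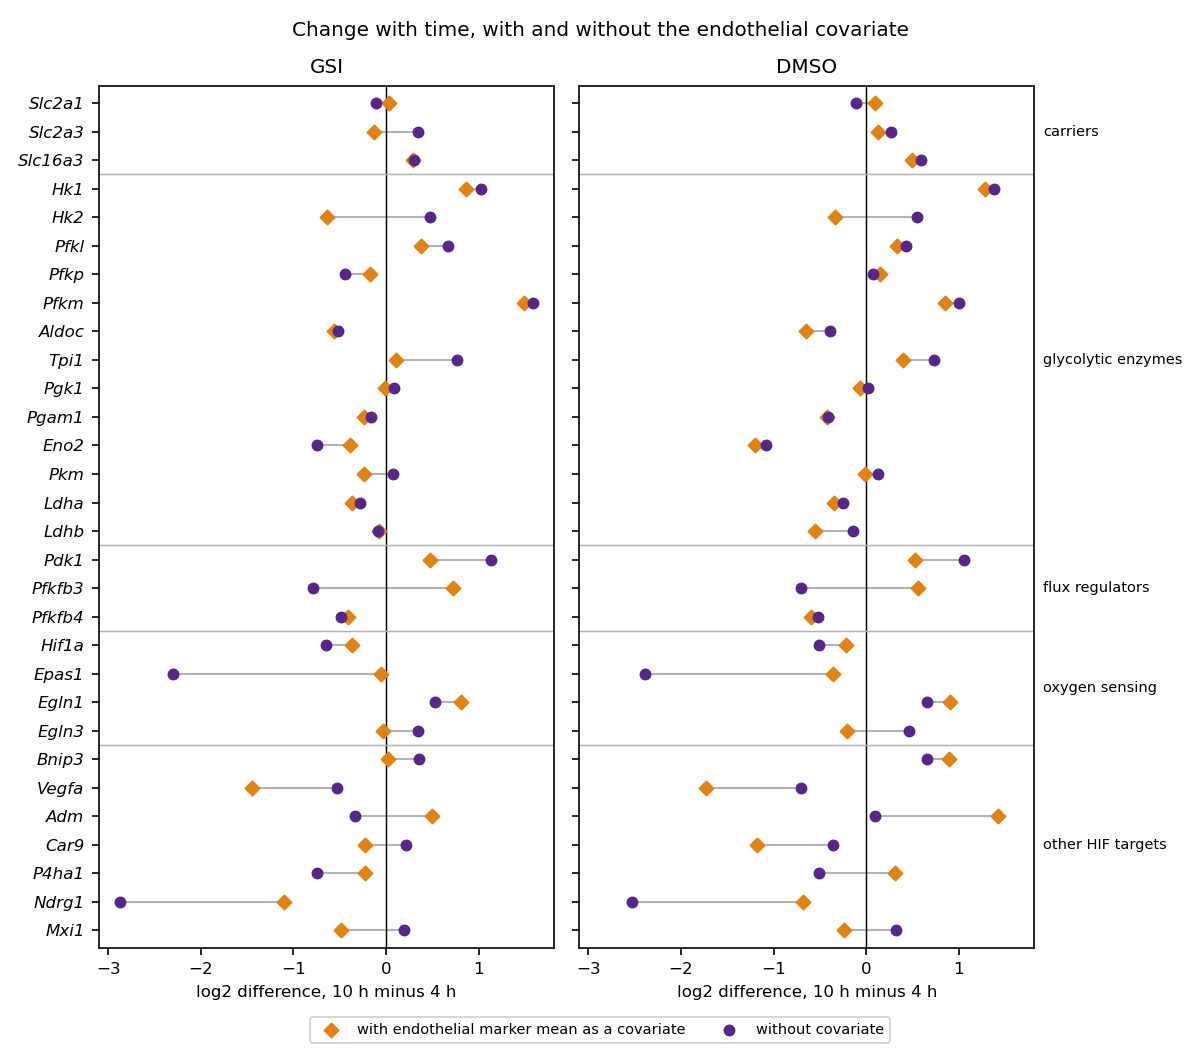
Log2 difference between 10 h and 4 h for each measured member, in GSI (left) and DMSO (right), with the endothelial marker mean as a covariate (orange diamonds) and without it (purple circles). Epas1, Ndrg1, Pdk1 and Tpi1 move toward 0. Hk1 in both treatments, Pfkm and Ndrg1 in GSI and Eno2 in DMSO stay past the threshold. Vegfa moves further left and, like Adm in DMSO, passes only with the covariate.

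The other genes of these pathways were taken from a list of 94, of which 85 were measured. In GSI 34 of 85 passed with time (19 higher and 15 lower at 10 h) and in DMSO 31 (17 higher and 14 lower). These shares, 40% and 36.5%, are near the 36.1% and 33.9% of all genes. Of the genes of pyruvate entry and the citric acid cycle, 5 of 15 passed as higher in GSI and 6 of 15 in DMSO, with none lower. Of all genes, 19.1% were higher and 17% lower in GSI, and 18.7% and 15.2% in DMSO. The total passing in this list, 33.3% and 40%, is near the share of all genes. On the deposited values the list's changes that passed were smaller, 0.08 to 0.28 in GSI and -0.05 to 0.47 in DMSO, and Ogdh in DMSO was the 1 below 0. Idh3a, a subunit of isocitrate dehydrogenase, rose by 0.72 in GSI and 1.01 in DMSO (limma adjusted p = 0.00163 and 0.00104), and Dlat, a subunit of pyruvate dehydrogenase, by 0.74 and 0.80 (limma adjusted p = 0.00112 and 0.000841). Of the pentose phosphate genes, Rpia, which isomerises ribose 5-phosphate, rose by 1.49 in GSI and 1.63 in DMSO (limma adjusted p = 0.000113 and 6.3e-05).

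Among other glycolysis genes, Slc16a1, the lactate carrier MCT1, rose by 1.06 in GSI and 1.29 in DMSO (limma adjusted p = 8.9e-05 and 0.000199). Pdk4, a relative of Pdk1 with the same substrate, fell by 3.45 ± 0.663 on the log2 scale in GSI and fell by 2.80 ± 0.708 in DMSO (limma adjusted p = 0.00201 and 0.00999), opposite to Pdk1. Gapdh was 0.06 and 0.01. Among the HIF regulators, Arnt, the partner of the alpha subunits, fell by 0.69 in GSI and fell by 0.56 in DMSO (limma adjusted p = 0.00115 and 0.00524). Hif3a, a HIF alpha gene that is not among the members, rose by 0.98 and 0.96 (limma adjusted p = 0.00815 and 0.00194).

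Of 32 further HIF targets, 5 were higher and 11 lower in GSI, and 4 higher and 9 lower in DMSO, against 19.1% of all genes higher and 17% lower in GSI and 18.7% and 15.2% in DMSO. Their median change was -0.14 in GSI and -0.10 in DMSO. Hmox1, the haem oxygenase that macrophages express strongly, fell by 2.95 in GSI and fell by 2.60 in DMSO, and Flt1, an endothelial Vegf receptor, fell by 2.58 in GSI and fell by 2.30 in DMSO. Lox, a collagen crosslinking enzyme, fell by 1.85 in GSI (limma adjusted p = 0.0331). Ddit4, an inhibitor of mTOR signalling, fell by 1.61 in GSI and fell by 1.5 in DMSO. Plod1, a collagen lysyl hydroxylase, was -1.25 in GSI and -1.26 in DMSO, and the repressor gene Bhlhe40 -1.24 and -1.25. Wsb1 (-1.11 and -1.25) and Cited1 (-1.23 and -1.14) were lower too. Ero1a, which oxidises proteins in the endoplasmic reticulum, rose by 0.44 and 0.71, and the carbonic anhydrase gene Car12 by 0.74 and 0.80, while on the deposited values Ero1a was 0.016 and 0.23 and Car12 was 0.11 and 0.12. Except for Lox in DMSO, each of these passed in both treatments.

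The second comparison asks whether blocking Notch activation altered the members. No member passed at 10 h, where 0.667% of all genes did (0.555% higher and 0.113% lower), none at 4 h (0.00451%), and none for the mean of both times (0.32%, of which 0.266% higher and 0.0541% lower) or for the difference between the times (0.018%). At an unadjusted p under 0.05 there were 12 members at 10 h, 1 at 4 h, 4 for the mean and 6 for the difference, against 14.1%, 4.21%, 12% and 9.36% of all genes. The count of 12 at 10 h was 6 after joint quantile normalization, 7 after cyclic loess and 3 when the 10 h arrays were fitted alone. The shares of all genes at that p in these settings are not given here, so these counts are not set against them. The pair was a block in these fits.

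Egln3, the HIF prolyl hydroxylase that HIF itself induces, had the smallest p of the members at 4 h and for the mean effect, while at 10 h Car9, Pfkm, Pgam1 and Pfkl had smaller ones. At 10 h the pair differences were 0.81, 0.59, 0.48 and -0.06, with levels of 7.06 to 8.28 in GSI and 6.58 to 7.47 in DMSO. At 4 h they were 0.03, 0.89, 0.65, 0.50, 0.96, -0.27 and 0.54, with levels of 6.30 to 8.66 in GSI (median 7.74) and 6.57 to 7.77 in DMSO (median 7.34). Egln3 was higher with GSI in 9 of 11 pairs, and the groups overlapped at both times. Its difference was 0.46 ± 0.18 at 10 h (limma adjusted p = 0.257), 0.47 ± 0.136 at 4 h (limma adjusted p = 0.999) and 0.46 ± 0.113 over both (limma adjusted p = 0.0909). It passed for the mean effect without 4 h pair 6 (0.52, limma adjusted p = 0.0433), and at 4 h within run 2, which holds 2 pairs (0.77, limma adjusted p = 0.0131), but not within run 3, which holds 4 (0.43, limma adjusted p = 0.809). Over the 16 alternatives its adjusted p for the mean effect ranged over 0.0433 to 1.00. The effect of GSI on Egln3 differed by -0.01 ± 0.225 between the times.

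Among the enzymes at 10 h, Pfkm differed by 0.91, 0.24, -0.05 and 1.07 over pairs 1 to 4 (0.55 ± 0.183, limma adjusted p = 0.183), and at 4 h by a mean of -0.08 ± 0.138. Pfkl was higher with GSI in 4 of 4 pairs at 10 h (0.32 ± 0.116), Pgam1 in 4 of 4 (0.23 ± 0.0814) and Pgk1 in 4 of 4 (0.14 ± 0.0613), while Pfkp was lower in 4 of 4 (-0.30 ± 0.12) and Hk1 in 3 of 4 (-0.26 ± 0.113). In all, 6 members kept 1 direction over the 4 pairs, against 16.7% of all genes. The 95% interval at 10 h ran from -0.50 to -0.02 for Hk1 and from 0.16 to 0.93 for Pfkm, which leaves out 0 for both, and neither passed after adjustment. No member kept 1 direction over the 7 pairs at 4 h, against 1.83% of all genes.

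Among the carriers and flux regulators, the lactate exporter gene Slc16a3 differed between GSI and DMSO by -0.54, -0.23, 0.15 and -0.52 over pairs 1 to 4 at 10 h (-0.28 ± 0.126, limma adjusted p = 0.32). The importer gene Slc2a3 at 4 h differed by 0.19, 0.18, -0.09, 0.23, -0.82, -0.08 and -0.55 over pairs 1 to 7, with both signs in each of runs 2 and 3. Pdk1 differed by -0.50, -0.02, -0.04 and 0.36 at 10 h and by 0.31, -0.37, -0.73, -0.34, -0.20, 0.09 and 0.11 at 4 h. Neither gene kept a direction over the pairs. The other probe of Pdk1 went the opposite way on average, by 0.14 at 10 h and 0.01 at 4 h, against -0.05 and -0.16.

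Of the HIF targets, Car9, which HIF induces strongly in many tumours, differed by 0.34, 1.20, 0.15 and 0.37 at 10 h (0.51 ± 0.164, limma adjusted p = 0.161) and by -0.10 ± 0.124 at 4 h, and pair 2 gave the largest value. The other probe of Car9 differed by 0.16 ± 0.192 at 10 h and, the opposite way, by 0.07 ± 0.145 at 4 h. Adm at 4 h differed by 1.11, 0.64, 0.15, -0.13, -0.06, -0.12 and 0.27 over pairs 1 to 7 (0.27 ± 0.131), with the largest values in runs 1 and 2. Vegfa was 0.25 ± 0.106 higher and Ndrg1 -0.31 ± 0.144 at 10 h. Mxi1 was lower in 3 of 4 pairs at 10 h (-0.30 ± 0.141) and 5 of 7 at 4 h (-0.19 ± 0.107), and it passed at 4 h within run 2 (-0.44, limma adjusted p = 0.0303). Hif1a differed by -0.02 ± 0.0853 at 10 h and 0.06 ± 0.0645 at 4 h, and Epas1 by -0.11 ± 0.128 and -0.17 ± 0.0969.

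**Figure D5:**
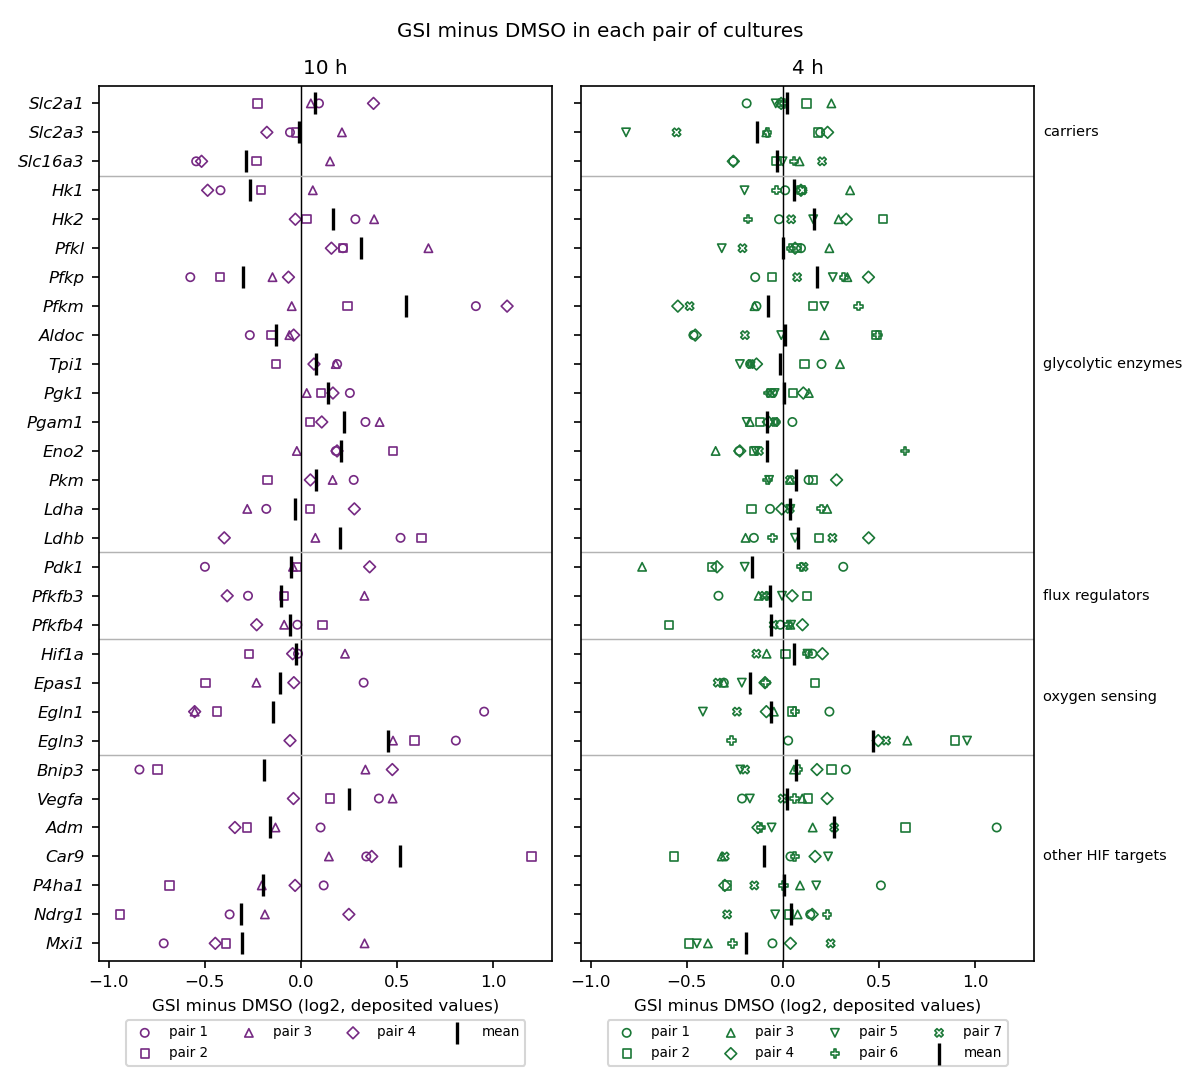
GSI minus DMSO in each pair of cultures, on the deposited log2 values, at 10 h (left, 4 pairs) and 4 h (right, 7 pairs); black ticks are means over pairs. At 10 h Pfkl, Pgk1, Pgam1 and Car9 lie right of 0 and Pfkp and Aldoc left of 0 in all 4 pairs, and at 4 h no member keeps 1 side, Egln3 lying right of 0 in 6 of 7 pairs.

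Of the 85 other pathway genes, 1 passed for the mean effect of GSI. Cited2, which competes with HIF for its coactivator, was higher with GSI in 4 of 4 pairs at 10 h (0.68 ± 0.159) and 6 of 7 at 4 h (0.60 ± 0.12), and rose by 0.64 ± 0.1 over both times (limma adjusted p = 0.0137). Its deposited level averaged 9.09 ± 0.233 in GSI and 8.41 ± 0.335 in DMSO at 10 h (SD, n = 4 each), and 10.00 ± 0.699 in GSI and 9.40 ± 0.448 in DMSO at 4 h (SD, n = 7 each). Without the pair as a block its adjusted p was 1.00, and over the 16 alternatives it ranged over 0.00174 to 1.00. Nfil3 and Depp1 had mean effects of 0.45 and -0.38 that did not pass (limma adjusted p = 0.0731 and 0.0717). At 10 h the chemokine receptor gene Cxcr4 was 0.41 (limma adjusted p = 0.123) and Pdk4 -0.58 (limma adjusted p = 0.129).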

How the data were processed

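RNA of the sorted cells was extracted with Pico Pure, biotin-labelled and hybridised to 1-colour arrays, per the labels' protocols. The deposited values are log2 expression per probe. RMA and Partek 6.6 are named in the submitters' processing notes, and whether both times were normalized together, and the genome build, are not given in the sources used here. Of 41345 probes, 23521 name 1 gene in the platform annotation, 1814 several and 16010 none. The probe with the highest mean stood for a gene with several, which held for 7 members.

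GSI was compared with DMSO on the deposited log2 values of all 22 arrays with the pair as a block, which comes from the design text. Deviations of paired arrays correlated by 0.213 to 0.449 at 10 h and by 0.223 to 0.872 at 4 h. Times were compared in the 11 arrays of each treatment after joint quantile normalization. All fits used limma 3.58.1 (R 4.3.3) with an intensity trend, were 2-sided and were adjusted over 22180 genes, and were tested on simulated data. Motifs and exact permutation tests were run in Python (numpy 2.4.6, pandas 2.3.3, scipy 1.17.1). The named genes are all members, with array values for those that passed and, per role, the member of largest change or level, and of the other pathway genes the 10 of largest change that passed or else the 1 of smallest p per list. Members, lists and markers were chosen with earlier results of these data known. Idh3a, Dlat, Arnt, Hif3a, Gapdh, Ogdh, Ero1a and Car12 lie outside this rule and were chosen after their values were seen. Alternatives covered the block, normalization, signal filter, runs and single arrays. The number of arrays limits the precision.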

Additional observations from a re-analysis of the deposited data

Results flagged for a closer look

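In 12 of 180 sets of 4 to 7 values, 1 culture lay far from the others of its group by Dixon's criterion. Chance alone gives about 1 in 20 sets, which is 9 here. No cause was tested for any of these values.

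Of the joint log2 levels, Bnip3 in GSI at 10 h was 6.03 in pair 2, against 6.53 to 6.6 in the other pairs. Pfkfb4 in GSI at 10 h was 3.91 in pair 4, against 4.27 to 4.31. Vegfa in GSI at 10 h was 7.24 in pair 4, against 7.63 to 7.70. Ldha in GSI at 4 h was 4.72 in pair 3, against 4.49 to 4.58. Ldhb in DMSO at 10 h was 7.49 in pair 4, against 6.53 to 6.67. Hk2 in DMSO at 4 h was 8.26 in pair 1, against 6.91 to 7.21. In the DMSO culture of 4 h pair 6, Pgk1 was 9.82, against 10.02 to 10.07 in the other pairs, and Tpi1 was 8.19, against 8.95 to 9.24. That pair also had the highest endothelial markers.

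Of the differences between GSI and DMSO, Egln1 at 10 h was 0.95 in pair 1 and -0.55 to -0.44 in the other pairs. Pfkl at 10 h was 0.66 in pair 3 and 0.16 to 0.22 in the others. Eno2 at 4 h was 0.64 in pair 6 and -0.35 to -0.13 in the others. Pfkfb4 at 4 h was -0.59 in pair 2 and -0.05 to 0.10 in the others.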

How the results depend on the processing

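Without the pair as a block, 0 members passed for GSI in any comparison, as with it, and members at an unadjusted p under 0.05 numbered 2 at 10 h instead of 12 and 0 at 4 h instead of 1. For that unadjusted p, the share of all genes without the block is not given here. The share of all genes that passed for GSI at 10 h was 0.667% with the block, 0% without it, 0.167% after joint quantile normalization, 0.284% after cyclic loess and 0.00902% with the 10 h arrays alone. Within run 2 at 4 h, 2 members passed, Egln3 and Mxi1, and within run 3 there were 0. The share of all genes that passed within these runs is not given here. Leaving out each pair in turn gave 0 to 1 members for the mean GSI effect, the 1 being Egln3 without 4 h pair 6. The difference of the GSI effect between the times, far from passing for either gene, changed sign for Cited2 (0.07, against -0.045 after joint quantile normalization, -0.0068 after cyclic loess and -0.047 to 0.17 leaving out pairs) and for Egln3 (-0.01, against -0.14 to 0.16 leaving out pairs).

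No paired analysis was possible for the time changes because a pair lies within 1 time. Members that passed with time numbered 15 in GSI and 15 in DMSO. With only the 4 h arrays of run 2 they numbered 7 and 7, with only those of run 3 19 and 14, without run 5 at 10 h 8 and 9, without run 4 at 10 h 10 and 8, and with the endothelial covariate 4 and 4. The covariate and leaving out a 10 h run were added after seeing the data, and fewer arrays enter the run settings. Leaving out single arrays gave 13 to 17 in GSI and 12 to 18 in DMSO. Except for the covariate, given above, the shares of all genes that passed in these settings are not given here. The counts of members are therefore not set against them. On the deposited values, 4 called changes turned round, to -0.017 for Egln1 in GSI and, in DMSO, to -0.10 for Slc16a3, -0.22 for Pfkl and -0.016 for Bnip3. These values keep the lower array medians at 10 h.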

Other observations

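Among the 7 DMSO cultures at 4 h, members differed in how much they varied between cultures. The SD of log2 levels was 0.0715 for Hk1 and 0.0872 for Pgk1, against a median of 0.185 over all genes. It was 1.01 for Epas1, 0.860 for Ndrg1, 0.718 for Pfkfb3, 0.686 for Adm, 0.655 for Vegfa and 0.627 for Car9, and the SD of Epas1 exceeded that of 98.5% of all genes. Epas1, Ndrg1, Pfkfb3 and Adm had positive correlations with the endothelial mean over these cultures, as given above. Vegfa (r = -0.929) and Car9 (r = -0.647) had negative ones. None of these relations passed after adjustment.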
